A study of Homo sapiens with 16 samples.

Results

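The glycolysis and pentose phosphate genes described here are 32 genes chosen by symbol, out of 27311 genes listed for each library: 2 glucose transporters, 3 hexokinases, 7 further genes of upper glycolysis, 3 PFKFB regulators, 7 genes of lower glycolysis, 4 genes of lactate handling, 2 pyruvate dehydrogenase kinases and 4 pentose phosphate genes. All 32 were present in the files and all 32 passed the filter on low values, a TPM (a gene's reads per transcript length, scaled to the same sum in every library) of at least 1 in at least 2 libraries. RNA was measured by bulk sequencing in 4 established human lines with 2 libraries in each of 8 groups, 16 in all. THP-1, a monocytic line, carried dCas9-KRAB, a CRISPR interference repressor, in both of its groups, and was left untreated or given 1 µg/ml lipopolysaccharide (LPS) from E. coli K12 for 4 h. U937, also monocytic and labelled wild type, was untreated or given 200 ng/ml LPS for 4 h, so the LPS concentration differed between the lines. Jurkat, a wild-type T cell line, was untreated or given 5 µg/ml anti-CD3 with 100 ng/ml of the phorbol ester PMA for 4 h. BJAB, a wild-type B cell line, was untreated or given 10 µg/ml anti-IgM with 4 µg/ml anti-CD40 for 4 h. Each cell type was represented by 1 or 2 tumour lines, so a difference between lines is not a difference between cell types, and the labels do not say whether the libraries of a group came from separate cultures. The p-values therefore measure only the spread between these libraries, which may be technical.

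Glycolysis converts glucose to pyruvate. Transporters of the SLC2A family bring glucose in, hexokinases trap it as glucose 6-phosphate, phosphofructokinase commits it to the pathway under control of the PFKFB enzymes, and lactate dehydrogenase with SLC16A transporters turns pyruvate into exported lactate, while pyruvate dehydrogenase kinases hold pyruvate back from the mitochondria. The pentose phosphate pathway branches off at glucose 6-phosphate and supplies NADPH and ribose. Lymphocytes and monocytes are known to raise glucose uptake and glycolysis on activation, and several steps are encoded by paralogs with different affinity or regulation.

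Read counts recovered from the TPM values gave 3317689 to 8432224 reads per library. The lowest value is that of the second LPS library of THP-1, whose size came out alike from 15 of 16 reference libraries; 47.0% of its read counts were odd, whereas at double that depth every count would be even. Of 25 monocytic markers, 22 had a mean of at least 1 TPM in untreated THP-1 and 20 in untreated U937, against 7 in Jurkat and 8 in BJAB; all 20 T cell markers did so in Jurkat, and 18 of 20 B cell markers in BJAB. The first LPS library of U937 and the first stimulated library of BJAB stood apart from their partners: over all tested genes the log2 levels of the 2 libraries of a group differed with an SD of 0.89 and 0.96 there, against 0.35 to 0.46 in the other 6 groups. These 2 libraries widen the spread that all groups share in the fit, so the responses of the 32 genes are given below with and without them, and those of related genes as counts from both fits. Differences were tested with limma on log2(TPM + 1) over 14398 genes, with Benjamini-Hochberg adjustment over all of them and a threshold of 0.05. A fold on this scale understates the change of low genes. An exact permutation test of 2 against 2 libraries cannot give a p below 0.333 and was not used.

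**Figure D1:**
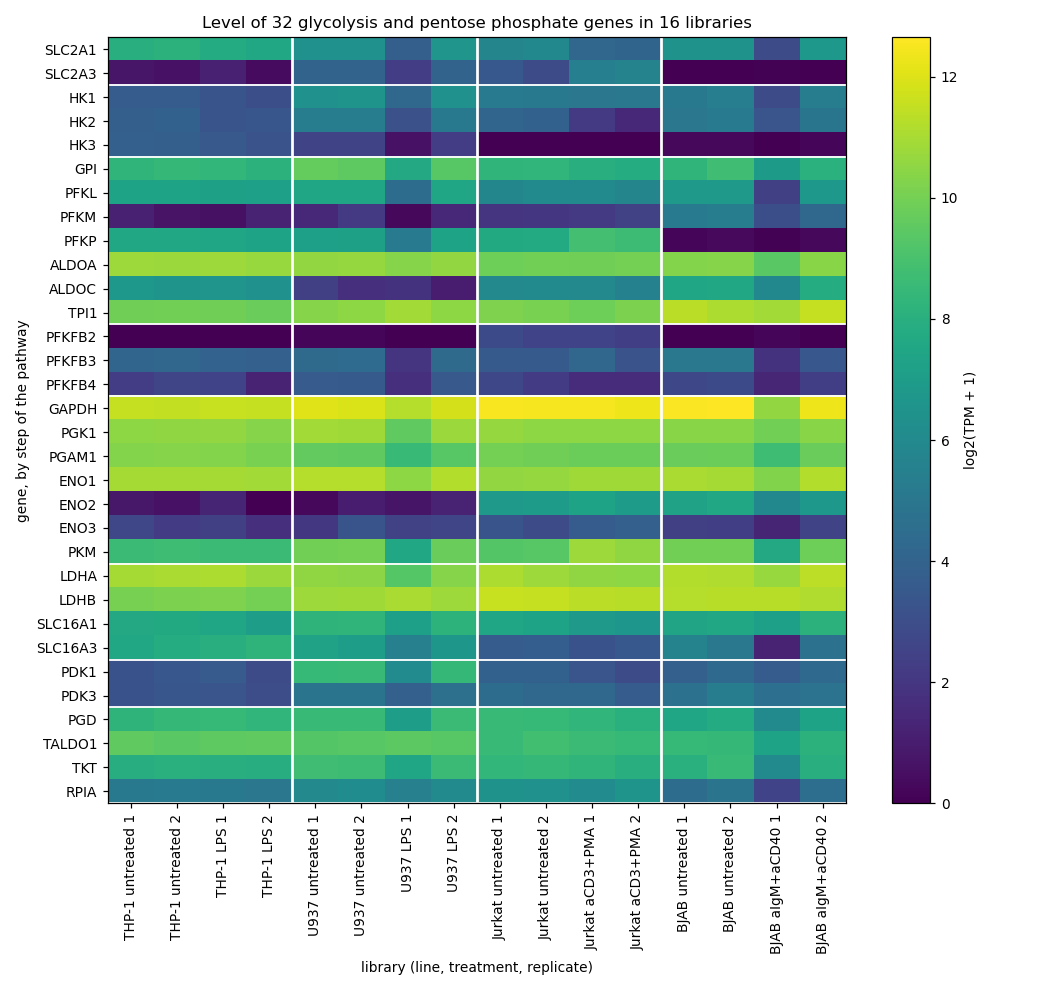
Level of each of the 32 genes (rows, ordered by step of the pathway, white lines between steps) in each of the 16 libraries (columns, white lines between cell lines), as log2(TPM + 1). PFKP is dark in all 4 BJAB libraries, ENO2 in all 8 libraries of the monocytic lines, and libraries U937 LPS 1 and BJAB aIgM+aCD40 1 are darker than their partners in many rows.

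In Jurkat, 4 h of anti-CD3 with PMA went with a larger share of SLC2A3 in the summed TPM of SLC2A1 and SLC2A3. SLC2A3 (GLUT3, a high-affinity glucose transporter) rose, and it was the 1 of 32 members that passed the test upward when all libraries were fitted, where 3.02% of all genes did so; none fell, where 1.85% of all genes did. Its TPM was 10.4 and 6.79 in the untreated libraries and 43.6 and 49.97 in the stimulated ones, without overlap. The log2 difference was 2.34 (SE 0.45, limma adjusted p = 0.0103), a 5.06-fold higher level on the TPM + 1 scale. Its call was lost with a pseudocount of 0.1 TPM (adjusted p = 0.0864), in a fit of the 4 Jurkat libraries alone (0.0654), and on leaving out the second untreated library (0.114), the first stimulated library (0.0601) or the second stimulated library (0.0900), but the difference lay between 1.94 and 2.61 throughout. SLC2A14, a near-identical copy of SLC2A3 outside the 32 genes, was at 0.368 and 0.153 TPM in untreated and 2.04 and 1.98 TPM in stimulated Jurkat. It reached 1 TPM in no other library and so entered the test only through the stimulated group, which leaves these values as a description. Reads that match both copies are not unique, so the level of each is uncertain.

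With the 2 libraries that stood apart left out of the fit, 4 members were higher (background 6.71% of all genes) and 3 were lower (background 6.78%) in stimulated Jurkat. The log2 differences themselves were the same, since no Jurkat library was left out. SLC2A1 (GLUT1, the basal glucose transporter of most cells) was at 53.5 and 58.8 TPM untreated and at 17.2 and 15.997 TPM stimulated. Its log2 difference was −1.70 (SE 1.01, limma adjusted p = 0.614 with all libraries, 9.57e-06 without the 2). Both stimulated libraries lay below both untreated ones. The summed TPM of SLC2A1 and SLC2A3 was 64.8 ± 1.2 (SD, n = 2) untreated and 63.4 ± 3.6 stimulated, while the SLC2A3 share of that sum was 13.3% ± 4.2 (SD, n = 2) untreated and 73.7% ± 2.9 stimulated. The sum of these 2 genes was thus nearly level while its makeup turned over. It leaves out the other SLC2A genes. Of those, SLC2A4, SLC2A6 and SLC2A11 were lower in stimulated Jurkat (below) and SLC2A14 was higher (above).

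HK2, the inducible hexokinase bound to mitochondria, was at 16.7 and 14.2 TPM in untreated and 3.38 and 1.77 TPM in stimulated Jurkat, or 426 and 290 reads against 80 and 42. The log2 difference was −2.24 (SE 0.59, limma adjusted p = 0.0573 with all libraries, 9.02e-05 without the 2). It passed in 4 of 14 alternatives: the fit without the 2, median-of-ratios scaling (0.00995), quantile normalization (0.00226) and limma-voom on recovered reads (0.0362). In the other 10 its adjusted p in limma ran from 0.0602 to 0.376; leaving out 1 Jurkat library gave 0.136 to 0.376, and the fit of Jurkat alone 0.0891. HK1, the constitutive hexokinase, stayed within 31.0 to 34.4 TPM over the 4 Jurkat libraries. Accordingly the HK2 share of hexokinase TPM was 31.3% ± 2.1 (SD, n = 2) untreated and 7.51% ± 3.3 stimulated. HK3, the hexokinase of myeloid cells, had 0 reads in all 4 Jurkat libraries, which at 3 reads allows up to 0.34 TPM (counting error only).

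PFKP, the platelet-type phosphofructokinase, was at 203 and 210 TPM untreated and 466 and 414 TPM stimulated. Its log2 difference was 1.08 (SE 0.49, limma adjusted p = 0.375 with all libraries, 9.72e-05 without the 2). PKM, the pyruvate kinase that makes the last ATP of glycolysis, was at 606 and 662 TPM untreated and 1757 and 1496 TPM stimulated. The log2 difference of PKM was 1.35 (SE 0.68, limma adjusted p = 0.473 with all libraries, 1.17e-05 without the 2). In both genes the 2 stimulated libraries lay above the 2 untreated ones. Gene-level TPM does not separate the M1 and M2 splice forms of PKM. Summed phosphofructokinase TPM went from 269 ± 10 (SD, n = 2) to 502 ± 42, and the PFKP share of it from 77.0% ± 1.1 to 87.6% ± 0.066.

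SLC16A1 (MCT1, which carries lactate across the membrane in either direction) was at 177 and 161 TPM untreated and 109 and 98.8 TPM stimulated, with a log2 difference of −0.69 (SE 0.36, limma adjusted p = 0.496 with all libraries, 0.00849 without the 2). ENO1, the main enolase, was at 1540 and 1589 TPM untreated and 1843 and 1858 TPM stimulated, a log2 difference of 0.24 (SE 0.26, limma adjusted p = 0.955 with all libraries, 0.0454 without the 2). These were the smallest of the differences that passed without the 2 libraries. Of the 14 alternatives, SLC2A1 and PFKP passed in 2 each, and PKM, SLC16A1 and ENO1 only in the fit without the 2. Stimulated and untreated Jurkat libraries did not overlap in 23 of 32 members, against 49.6% of all genes. The other 25 members lay between −0.88 (PFKFB4) and 0.67 (ENO3) and passed in neither fit. Over all 32 genes the median log2 difference in Jurkat was −0.13, against −0.03 over all tested genes.

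**Figure D2:**
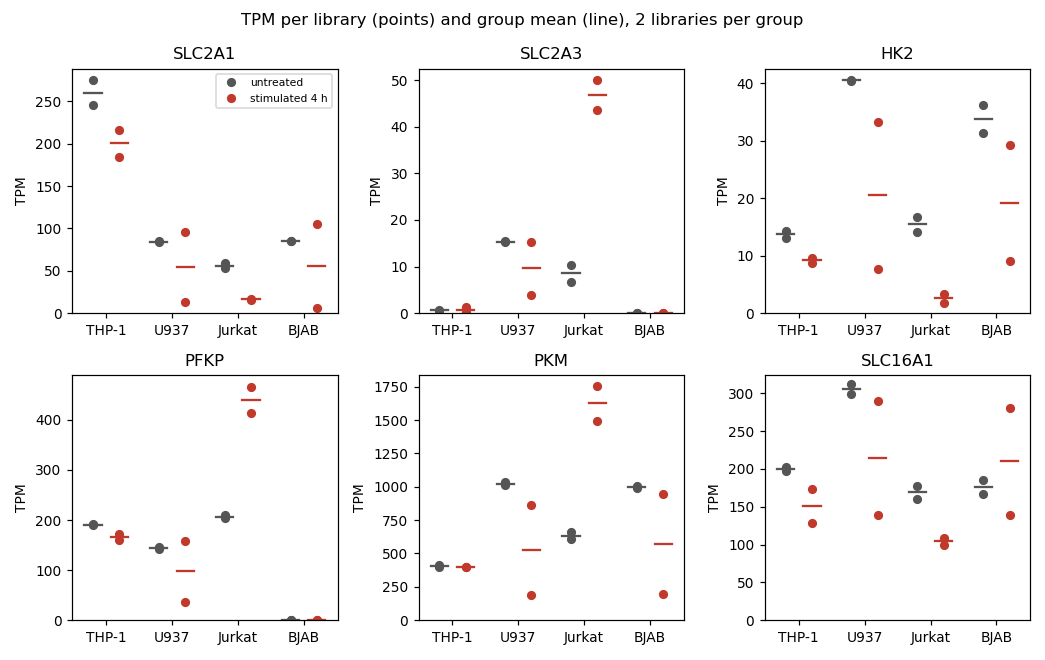
TPM of 6 genes in each library (points, 2 per group; horizontal lines are group means) in untreated (grey) and 4 h stimulated (red) cells of the 4 lines, each axis starting at 0. In Jurkat SLC2A3, PFKP and PKM lie higher and SLC2A1, HK2 and SLC16A1 lower after stimulation; in U937 and BJAB the 2 stimulated libraries lie far apart.

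The start regions of the Jurkat genes that moved furthest are shown with that of PFKM, the muscle-type phosphofructokinase. It was added because untreated BJAB had almost no PFKP and more PFKM than the other lines (below). Each is the 250 bases before the annotated gene start in RefSeq, GRCh38.p14, read 5′ to 3′ on the strand of the gene; the authors aligned to hg19, so these coordinates apply to the sequences only. Capitals mark ACGTG or GCGTG, the core letters of hypoxia response elements, on either strand (CACGT and CACGC when read on the other strand).
SLC2A1, chr1:42958869-42959118, minus strand: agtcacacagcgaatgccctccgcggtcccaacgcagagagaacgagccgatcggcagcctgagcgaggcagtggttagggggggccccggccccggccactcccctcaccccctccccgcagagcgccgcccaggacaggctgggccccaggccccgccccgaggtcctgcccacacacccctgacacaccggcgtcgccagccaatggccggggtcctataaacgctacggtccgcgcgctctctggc
HK2, chr2:74833877-74834126, plus strand: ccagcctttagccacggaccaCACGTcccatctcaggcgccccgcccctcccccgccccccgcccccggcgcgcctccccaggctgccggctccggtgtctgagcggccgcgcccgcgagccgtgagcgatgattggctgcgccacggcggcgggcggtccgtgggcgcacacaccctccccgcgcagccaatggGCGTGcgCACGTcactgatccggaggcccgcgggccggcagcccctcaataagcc
PFKP, chr10:3067720-3067969, plus strand: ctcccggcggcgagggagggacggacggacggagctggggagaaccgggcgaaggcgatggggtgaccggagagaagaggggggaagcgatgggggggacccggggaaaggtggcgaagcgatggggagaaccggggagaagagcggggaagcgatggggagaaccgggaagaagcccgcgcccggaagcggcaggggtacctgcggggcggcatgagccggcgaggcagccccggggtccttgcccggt
PFKM, chr12:48105623-48105872, plus strand: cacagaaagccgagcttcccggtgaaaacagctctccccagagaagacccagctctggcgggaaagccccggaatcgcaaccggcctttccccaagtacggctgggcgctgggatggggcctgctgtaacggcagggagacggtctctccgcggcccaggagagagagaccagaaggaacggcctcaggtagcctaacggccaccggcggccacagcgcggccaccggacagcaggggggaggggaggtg
PKM, chr15:72231191-72231440, minus strand: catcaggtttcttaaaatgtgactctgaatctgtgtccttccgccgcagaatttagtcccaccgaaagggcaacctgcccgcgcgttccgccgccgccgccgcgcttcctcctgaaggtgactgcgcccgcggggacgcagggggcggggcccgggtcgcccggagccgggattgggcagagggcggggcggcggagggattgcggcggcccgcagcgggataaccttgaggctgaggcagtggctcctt
HK2 held ACGTG at 2 places and GCGTG at 1, and the other 4 windows held neither. RefSeq start regions matched 29 of the 32 genes; SLC2A3, PFKFB2 and SLC16A1 had no entry. ACGTG was present in 10 of the 29 windows (34.5%) and in 18.7% of 27305 windows of all genes, GCGTG in 11 (37.9%) and 31.9%, and the GC box GGGCGG in 21 (72.4%) and 42.3%, all counted on both strands. The E-box CACGTG, which contains ACGTG on both strands and so adds 2 ACGTG matches each time, was in 3 (10.3%) and 6.49%. TGANTCA, the AP-1 motif, was in 2 (6.9%, ENO2 and ENO3) and 6.6%. LDHA had the most ACGTG matches, 5, of which 4 came from its 2 E-boxes. None of the motif letters was shared by the 4 Jurkat genes except GGGCGG, which SLC2A1 held 2 times, HK2 4 times, PFKP 1 time and PKM 3 times. The annotated start may not be the start used in these cells.

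None of the 32 genes passed the test in THP-1 after LPS (background 0.167% of all genes, or 24 genes); none did so at an unadjusted p under 0.05 either, where 522 of all genes did. Without the 2 libraries none passed, against 0.257% of all genes. The log2 differences ran from −0.57 (PFKFB4) to 0.44 (SLC16A3), with a median of −0.08 against −0.06 over all genes. SLC16A3 (MCT4, the lactate exporter of glycolytic cells) was at 182 and 230 TPM untreated and 256 and 304 TPM with LPS (adjusted p = 1 in limma), and SLC16A1 at 198 and 202 against 174 and 129 TPM. The SLC16A3 share of the pair was 50.6% ± 3.7 (SD, n = 2) untreated and 64.9% ± 7.5 with LPS. SLC2A1 was at 245 and 275 TPM untreated and at 217 and 185 TPM with LPS. HK2 was at 13.1 and 14.4 against 8.78 and 9.61 TPM, and HK3 at 13.5 and 13.4 against 10.6 and 8.45 TPM. In each of these 5 genes the libraries of the 2 groups did not overlap, as in 11 of 32 members and 34.7% of all genes, a share near the background.

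In U937 after LPS no member passed either (background 0.0278% of all genes, or 4 genes; 4 members and 2176 genes had an unadjusted p under 0.05). With both LPS libraries the members' median log2 difference was −0.70 against −0.25 over all genes; with the second LPS library alone it was −0.07 against 0, and again no member passed, against 0.0278% of all genes. The lowest single value moved from −1.52 (PFKL) to −1.05 (ALDOC). PFKL, the liver-type phosphofructokinase, was at 177 and 177 TPM untreated and at 21.3 and 172 TPM with LPS. PKM was at 1012 and 1034 TPM untreated and at 185 and 861 TPM with LPS. In both genes the first LPS library was far below the controls and the second was near them. Leaving out the second LPS library instead made 17 of 32 members lower, where 29.6% of all genes were lower, while leaving out the first left none.

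In BJAB after anti-IgM with anti-CD40 no member passed with all libraries (background 6.4% of all genes; 8 members and 3481 genes had an unadjusted p under 0.05). The median log2 difference was −0.70 against −0.14 over all genes, and −0.06 against −0.04 without the first stimulated library. PFKFB3, the PFKFB enzyme that most favours glycolysis, was at 32.6 and 32.3 TPM untreated and at 2.66 and 9.9 TPM stimulated, so both stimulated libraries were below both controls. Its log2 difference was −2.40 (SE 0.67, limma adjusted p = 0.0576) with all libraries and −1.62 (0.00964) without the 2, the 1 member lower there (background 5.85%). SLC16A1 was the 1 member higher there (background 3.37%): it was at 167 and 185 TPM untreated and at 140 and 281 TPM stimulated, with a log2 difference of 0.17 (adjusted p = 0.9 in limma) with all libraries and 0.67 (0.034) without the 2. Both calls rest on the second stimulated library alone, whose spread is not measured. For SLC16A1 the first stimulated library lay below both controls. PFKM was at 35.3 and 38.5 TPM untreated and 7.24 and 18.0 TPM stimulated (log2 difference −1.60, limma adjusted p = 0.0643, and −0.99 with 0.151 without the 2). With the second stimulated library left out, 18 of 32 members were lower, where 22.6% of all genes were. The summed TPM of 20 B cell markers was 7334 to 7929 in untreated and 2450 to 5002 in stimulated BJAB; its part in these values was not tested.

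**Figure D3:**
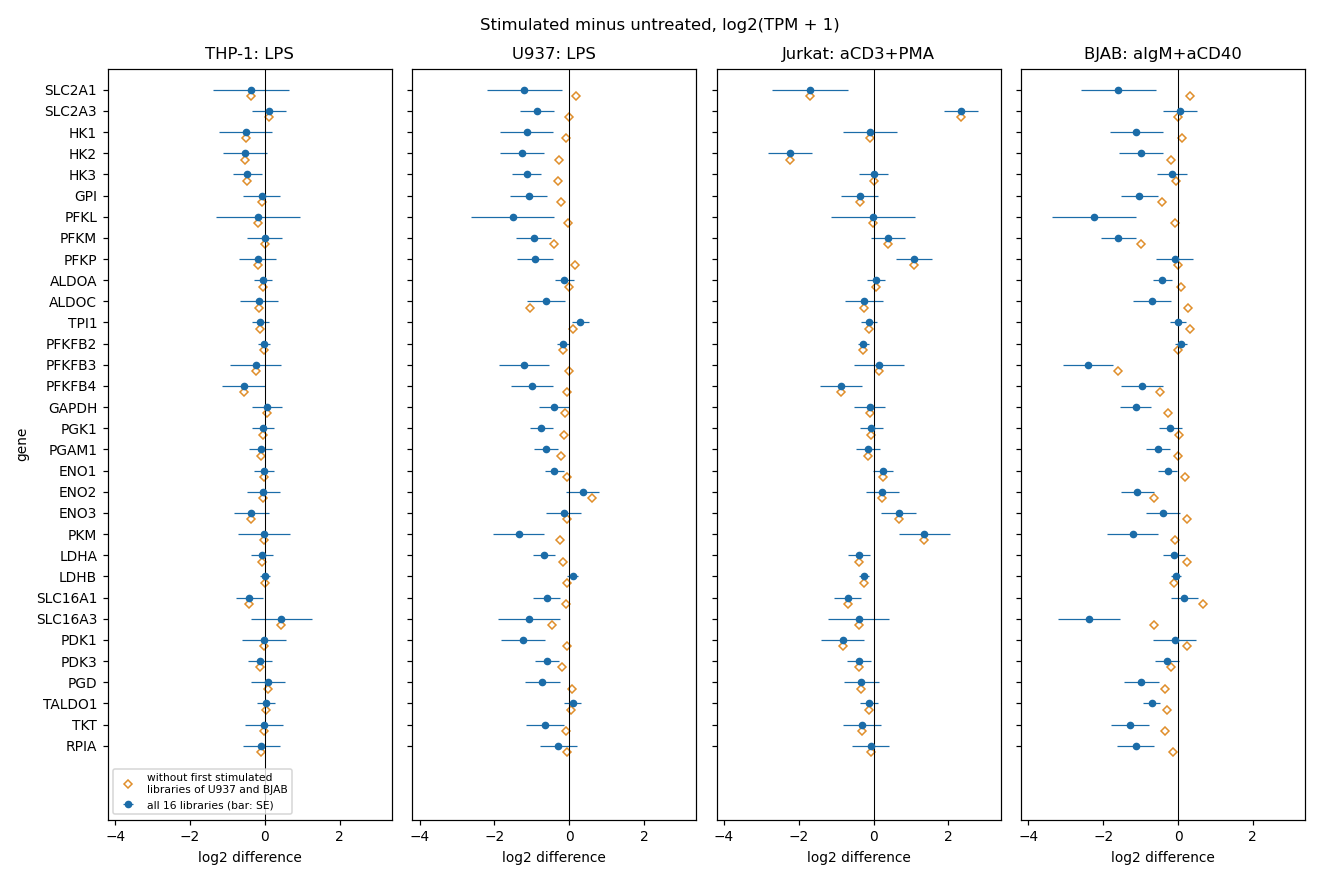
Log2 difference, stimulated minus untreated, on log2(TPM + 1) for the 32 genes in the 4 lines: blue points and bars are the estimate and standard error with all 16 libraries, orange diamonds the estimate without the 2 libraries that stood apart. Diamonds lie near 0 for most genes of U937 and BJAB, and the Jurkat and THP-1 estimates do not move.

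The deficit of the 2 libraries that stood apart was uneven over the members. In U937 27 of 32 members were lower in the first than in the second LPS library, with a median log2 difference of −1.13 and a range of −2.96 (PFKL) to 0.84 (ALDOC). In BJAB 29 of 32 were lower in the first stimulated library, with a median of −1.03 and a range of −4.32 (PFKL) to 0.15 (PFKFB2). The members' summed TPM was 12903 against 18874 in the U937 pair and 11876 against 22068 in the BJAB pair; the 12 other libraries of these genes lay between 15681 and 22316. In U937 the 8 members with the shortest length in the authors' TPM had a median of −0.06 and the 8 with the longest −1.87; in BJAB these medians were −1.17 and −1.11. By GC content of the coding transcripts the 8 lowest and 8 highest members had medians of −0.33 and −1.39 in BJAB and of −1.04 and −1.72 in U937. ACTB, a housekeeping gene outside the set, was at 3779 and 8785 TPM in the U937 pair and at 1858 and 7488 TPM in the BJAB pair. The part of length, GC content or RNA quality in these 2 libraries was not tested.

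The response of Jurkat was compared with that of BJAB, and that of THP-1 with that of U937, by the difference of the 2 responses in the same fit. No member passed for Jurkat minus BJAB with all libraries (background 5.24% of all genes; 4 members and 2399 genes had an unadjusted p under 0.05). Without the 2 libraries 4 members were higher in that difference (background 5.6%) and 3 lower (background 3.16%). The higher ones were SLC2A3 (2.34, adjusted p = 0.00888), PFKFB3 (1.75, 0.0209), PKM (1.44, 0.000343) and PFKP (1.08, 0.0029), as log2 differences of responses tested in limma. The lower ones were HK2 (−2.04, 0.0044), SLC2A1 (−2.01, 0.000157) and SLC16A1 (−1.37, 0.00387). With all libraries their adjusted p in limma ran from 0.0688 for SLC2A3 to 1 for SLC2A1. Without the 2, the BJAB response rests on its second stimulated library alone, whose spread is not measured. For SLC16A1 the first stimulated BJAB library lay below both controls and the second above them. For PFKFB3 the stimulated Jurkat libraries lay on either side of the untreated ones. SLC2A3 had 0 reads in both untreated BJAB libraries and 1 and 0 in the stimulated ones, and PFKP had 1 to 3, so for these 2 genes the contrast sets Jurkat against a line with almost no transcript. For THP-1 minus U937 no member passed with all libraries (background 0.0486%; no member and 891 genes at an unadjusted p under 0.05) or without the 2 (background 0.0278%).

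At baseline each untreated line was set against the mean of the other 3. THP-1 had 5 members higher (background 17.6% of all genes) and 9 lower (17.3%), U937 6 higher (15.1%) and 3 lower (20.8%), Jurkat 6 higher (22.0%) and 4 lower (16%), and BJAB 6 higher (14.5%) and 6 lower (25.0%). These 45 calls fell on 17 members, and 4 of them on PFKFB2, which reached 1 TPM only in Jurkat and so entered the test through that line. PFKFB2 is counted above as higher in Jurkat and lower in the other 3 lines. It also stays in the counts under the alternatives, and its 4 calls are not read as differences between lines. Of the other 41 calls, 23 held in every alternative run. The calls of 1 gene are not separate findings, since each line also enters the mean the others are set against. PFKP, almost absent in BJAB alone, counts as lower there and as higher in the other 3 lines. The split depended on scaling. After median-of-ratios scaling THP-1 had 8 members higher (background 20.3%) and 8 lower (15.7%), U937 10 (16.6%) and 4 (20.4%), Jurkat 4 (18.3%) and 6 (18.8%), and BJAB 5 (15.4%) and 8 (25.0%). After quantile normalization U937 had 12 higher (18.7%) and 2 lower (20.8%), and Jurkat 6 (20.0%) and 6 (20.4%). Without the 2 libraries the calls in either direction numbered 24 for THP-1 (background 55.6%), 28 for U937 (57.5%), 24 for Jurkat (58.9%) and 23 for BJAB (59.4%). Of 15 members that passed in no line with all libraries, 14 then passed in at least 1 line, the exception being ENO3. The members' median log2 difference was −0.36 for THP-1 (−0.08 over all genes), 0.42 for U937 (−0.11), −0.14 for Jurkat (0.14) and −0.11 for BJAB (−0.15). In the following, log2 differences are untreated line minus mean of the other 3, tested with limma.

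Of SLC2A1 and SLC2A3, SLC2A1 led in each untreated line. It was at 245 and 275 TPM in THP-1, 84.3 and 84.9 TPM in U937, 53.5 and 58.8 TPM in Jurkat and 85.1 and 85.0 TPM in BJAB. THP-1 stood highest and Jurkat lowest, with U937 and BJAB above Jurkat. The mean against which U937, Jurkat and BJAB were each set holds THP-1, which lowers their differences. No line passed for SLC2A1 with all libraries; without the 2, which hold no untreated cells, THP-1 was higher (1.799, adjusted p = 1.56e-07), and Jurkat (−1.12, 3.93e-06), U937 (−0.34, 0.00959) and BJAB (−0.33, 0.0108) were lower. SLC2A3 was at 0.685 and 0.524 TPM in THP-1, 15.3 and 15.4 in U937, and 10.4 and 6.79 in Jurkat. In BJAB its count of 0 allows up to 0.262 TPM. It was higher in U937 (2.73, SE 0.37, adjusted p = 0.00013) and lower in BJAB (−2.65, SE 0.37, adjusted p = 0.000121). In U937 it made up 15.4% ± 0.018 (SD, n = 2) of the pair.

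The hexokinases divided the lines. HK3 was at 13.5 and 13.4 TPM in untreated THP-1, 5.05 and 5.09 in U937, 0.223 and 0.205 (2 reads each) in BJAB and 0 in Jurkat. In THP-1 it was higher (2.89, SE 0.32, adjusted p = 2.53e-05) and made up 34.7% ± 0.85 (SD, n = 2) of hexokinase TPM, close to the HK1 share of 30.0% ± 0.64 and the HK2 share of 35.3% ± 1.5. HK1 was at 11.7 and 11.7 TPM in THP-1, 82.1 and 94.3 TPM in U937, 34.4 and 33.5 TPM in Jurkat and 33.7 and 41.6 TPM in BJAB. HK2 was at 13.1 and 14.4, 40.6 and 40.5, 16.7 and 14.2, and 31.3 and 36.2 TPM in the same order. No line passed for HK2 with all libraries; without the 2, U937 (1.03) and BJAB (0.68) were higher and THP-1 (−0.96) and Jurkat (−0.75) lower, at adjusted p from 0.000543 to 0.00600. Summed hexokinase TPM was lowest in THP-1, at 38.9 ± 0.88 (SD, n = 2), and highest in U937, at 134 ± 8.5.

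Phosphofructokinase showed the sharpest contrast between lines. PFKP was at 189 and 192 TPM in THP-1, 142 and 146 in U937 and 203 and 210 in Jurkat, and at 0.18 and 0.249 TPM in BJAB, which is 2 and 3 reads. It was lower in BJAB (−7.21, SE 0.40, adjusted p = 6.14e-08). PFKM was at 1.25 and 0.607 TPM in THP-1, 1.68 and 3.46 TPM in U937, 2.69 and 2.997 TPM in Jurkat and 35.3 and 38.5 TPM in BJAB, where it was higher (3.69, SE 0.38, adjusted p = 9.26e-06). PFKL was at 164 and 161, 177 and 177, 55.5 and 62.7, and 109 and 115 TPM in the same order. It passed in no line with all libraries, and without the 2 it was higher in THP-1 and U937 and lower in Jurkat, at adjusted p from 8.43e-07 to 0.000187. In BJAB the enzyme was thus read from PFKL (75.0% ± 0.42, SD, n = 2) and PFKM (24.8% ± 0.4), with PFKP at 0.144% ± 0.026. In THP-1 and U937 PFKL and PFKP shared it almost evenly, with PFKP at 53.8% ± 0.57 and 44.5% ± 0.32, and in Jurkat PFKP led with 77.0% ± 1.1. Summed TPM was 354 ± 0.65 in THP-1 and 149 ± 6.8 in BJAB.

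Of the PFKFB enzymes, which make or remove the activator of phosphofructokinase, PFKFB3 led in each untreated line, at 16.5 and 17.2 TPM in THP-1, 19.4 and 20.8 TPM in U937, 10.8 and 10.9 TPM in Jurkat and 32.6 and 32.3 TPM in BJAB. PFKFB2, the heart type, was at 6.27 and 4.82 TPM in Jurkat and at 4.75 and 4.03 TPM after stimulation. Elsewhere it was at most 0.131 TPM, from no more than 4 reads in a library. It reached 1 TPM only in Jurkat, the line through which it passed the filter, so no test of it is given. It made up 26.1% ± 2.0 (SD, n = 2) of PFKFB TPM there. PFKFB4 was at 3.87 and 5.25, 11.4 and 10.9, 5.67 and 3.80, and 5.78 and 6.25 TPM in the 4 untreated lines.

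Aldolase A, the main aldolase, was at 1811 and 1742 TPM in THP-1, 1541 and 1590 TPM in U937, 940 and 980 TPM in Jurkat and 1268 and 1288 TPM in BJAB. ALDOC, the brain-type paralog, was at 106 and 92.8, 4.21 and 2.37, 62.0 and 63.7, and 181 and 190 TPM. It was lower in U937 (−4.66, SE 0.42, adjusted p = 4.82e-06) and higher in BJAB (2.64, SE 0.42, adjusted p = 0.000306), and its share of aldolase TPM ran from 0.21% ± 0.087 (SD, n = 2) in U937 to 12.7% ± 0.25 in BJAB. ALDOA shares 53.5% of its exon bases with other annotated genes, so its level is uncertain. Of the single-copy steps, GPI, the isomerase after hexokinase, ranged from 306 to 805 TPM over the 8 untreated libraries and was highest in U937. TPI1, triose phosphate isomerase, ranged from 974 to 2636 TPM and was higher in BJAB (1.06, SE 0.18, adjusted p = 0.000543).

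In lower glycolysis the enolase gene ENO2 separated the lymphocyte lines from the monocytic ones, while ENO1 and ENO3 did not. ENO2, the neuronal-type enolase, was at 116 and 126 TPM in Jurkat and 154 and 187 in BJAB, and at 0.742 and 0.532 in THP-1 and 0.22 and 0.992 in U937. It was higher in Jurkat (4.00, SE 0.36, adjusted p = 3.67e-06) and BJAB (4.66, SE 0.36, adjusted p = 9e-07), and lower in both monocytic lines (THP-1 −4.29, adjusted p = 2.32e-06; U937 −4.38, adjusted p = 2.66e-06). ENO1 still made up most of enolase TPM, 92.4% ± 0.13 (SD, n = 2) in Jurkat and 92.1% ± 1.2 in BJAB, against 99.7% in both monocytic lines. ENO1 was at 2011 and 1945, 2420 and 2411, 1540 and 1589, and 2093 and 1994 TPM in the order THP-1, U937, Jurkat, BJAB. ENO3, the muscle type, was at 5.50 and 3.55, 3.15 and 8.85, 8.93 and 6.59, and 4.25 and 4.12 TPM. The remaining members of this stretch passed in no line with all libraries, while without the 2 GAPDH and PKM passed in all 4 lines and PGK1 and PGAM1 in 2 each. Over the 8 untreated libraries GAPDH ranged from 2875 to 6449 TPM, PGK1 from 1341 to 1935, PGAM1 from 762 to 1331 and PKM from 395 to 1034. Genome annotation lists 62 pseudogenes named after GAPDH and 13 after PGAM1, and uniquely aligned reads may undercount genes with such copies.

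Lactate dehydrogenase A, the form that favours lactate production, was at 1966 and 2141 TPM in THP-1, 1503 and 1409 TPM in U937, 2168 and 1759 TPM in Jurkat and 2308 and 2300 TPM in BJAB. LDHB, the form that favours pyruvate, was at 1063 and 1132, 1808 and 1839, 3074 and 2938, and 2440 and 2477 TPM, and it was lower in THP-1 (−1.12, SE 0.11, adjusted p = 8.67e-06). The LDHA share was therefore highest in THP-1, at 65.2% ± 0.34 (SD, n = 2), and was 44.4% ± 1.4 in U937, 39.4% ± 2.8 in Jurkat and 48.4% ± 0.33 in BJAB. LDHB shares 33.4% of its exon bases with another gene. SLC16A1 was at 198 and 202, 299 and 313, 177 and 161, and 167 and 185 TPM. SLC16A3 was at 182 and 230 TPM in THP-1, 155 and 135 TPM in U937, 11.9 and 12.7 TPM in Jurkat and 49.4 and 33.0 TPM in BJAB. It was lower in Jurkat (−3.01, SE 0.67, adjusted p = 0.00398), where it made up 6.82% ± 0.73 of the pair.

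**Figure D4:**
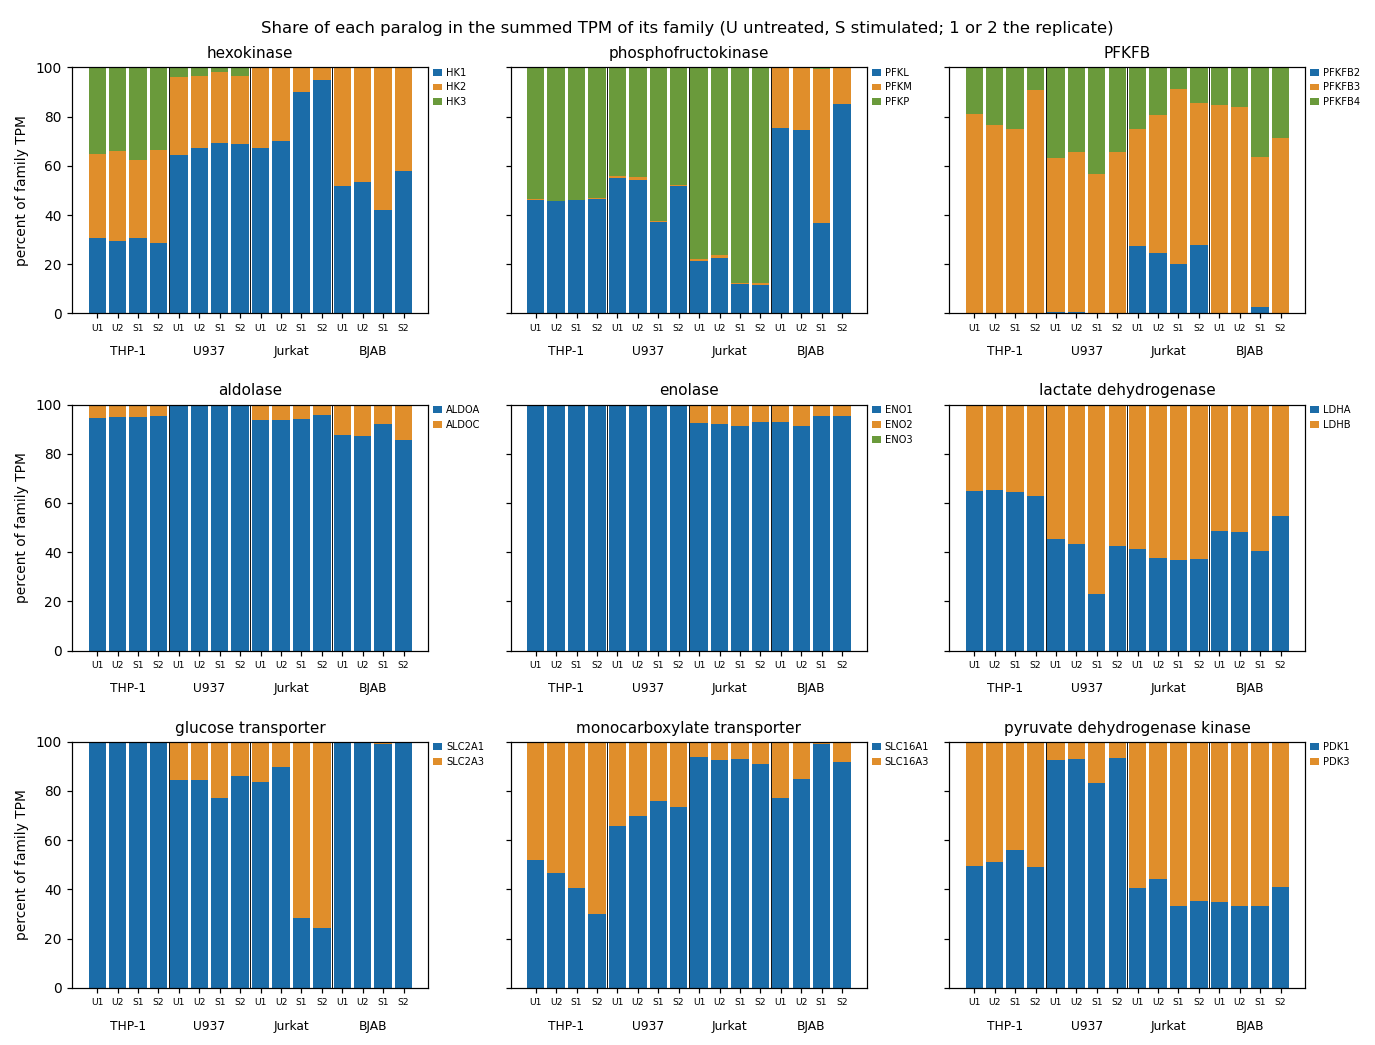
Percent of the summed TPM of each of 9 paralog families that each member gene took in every library (U untreated, S stimulated, with the replicate number), bars stacked to 100%. BJAB has almost no PFKP band, Jurkat has a PFKFB2 band in all 4 libraries, U937 is nearly all PDK1, and the SLC2A3 band in Jurkat goes from 13.3% to 73.7% on stimulation.

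PDK1, a kinase that turns off pyruvate dehydrogenase, was at 358 and 373 TPM in untreated U937, against 7.97 and 9.91 in THP-1, 14.5 and 14.3 in Jurkat and 13.6 and 19.3 in BJAB. It was higher in U937 (4.73, SE 0.47, adjusted p = 1.24e-05). With LPS it was at 68.5 and 348 TPM, the first of these in the library that stood apart. PDK3, its paralog, was at 8.17 and 9.42, 28.6 and 28.5, 21.1 and 18.0, and 25.7 and 38.9 TPM in the order THP-1, U937, Jurkat, BJAB. It was lower in THP-1 (−1.47, SE 0.26, limma adjusted p = 0.000972), a call kept in every alternative. PDK1 made up 92.7% ± 0.21 (SD, n = 2) of the pair in U937 and 33.9% ± 1.1 to 50.3% ± 1.3 elsewhere. In the pentose phosphate pathway, over the 8 untreated libraries, PGD, which makes NADPH, ranged from 181 to 376 TPM and TKT, transketolase, from 237 to 442 TPM, and neither passed in any line with all libraries. Without the 2, PGD was higher in U937 and Jurkat and lower in BJAB (adjusted p from 9.96e-05 to 0.0222), and TKT was higher in U937 and lower in THP-1 (0.00818 and 0.00791). TALDO1, transaldolase, ranged from 341 to 762 TPM and was higher in THP-1 (0.68, SE 0.19, adjusted p = 0.016, and up to 0.15 with 1 library left out). RPIA, ribose 5-phosphate isomerase, ranged from 21.2 to 86.2 TPM and was lower in BJAB (−1.20, SE 0.40, adjusted p = 0.0333, and up to 0.236 with 1 library left out).

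Of the 45 baseline calls, 16 were lost when a single library was left out. They were HK1, ALDOC, TPI1, SLC16A3 and TALDO1 in THP-1, HK1, HK3 and GPI in U937, SLC2A3, ALDOA, PDK1 and RPIA in Jurkat, and LDHB, PDK3, TALDO1 and RPIA in BJAB, with adjusted p in limma up to 0.269 (PDK3 in BJAB without its second untreated library). The calls of HK1 in U937, PDK1 and RPIA in Jurkat and RPIA in BJAB were lost whichever of the 8 untreated libraries was left out, and that of GPI in U937 for 7 of the 8. The other calls were lost when a library of the line itself was left out.

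Of the related genes outside the set, few passed in any stimulation with all libraries. Without the 2 libraries more did so in Jurkat and BJAB, where the share of all genes past the threshold was also larger. Genes named from that fit alone were picked with their values in view, and in BJAB and U937 it rests on 1 stimulated library. With all libraries 3.02% of all genes were higher and 1.85% lower in Jurkat, 1.63% and 4.76% in BJAB, and 0.118% and 0.0486% in THP-1. Without the 2 these shares were 6.71% and 6.78% in Jurkat and 0.229% and 0.0278% in THP-1. Of 13 other glycolysis genes tested, HKDC1, a hexokinase relative, reached 1 TPM only in Jurkat, mostly in the untreated libraries. It is described and not counted, at 2.72 and 1.88 TPM in untreated and 0.487 and 1.14 TPM in stimulated Jurkat. FBP1, also among the 13, reached 1 TPM only in THP-1, so the other lines held too little of it to test. In BJAB 1 was lower with all libraries only (background 4.76% of all genes). This was GAPDHS, the sperm form of GAPDH, at 4.81 and 5.05 against 0.343 and 1.81 TPM (log2 difference −1.61, limma adjusted p = 0.0485). Of 10 other pentose phosphate genes, TKTL1, a transketolase relative, was lower in Jurkat in both fits, at 7.30 and 4.79 against 1.45 and 0.723 TPM (−1.76, limma adjusted p = 0.000901).

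Of 11 other transport genes, SLC2A14 was described above and is not counted here. With all libraries 1 was lower in Jurkat (background 1.85% of all genes) and 2 were lower in BJAB (background 4.76%). Without the 2, 1 was higher in THP-1 (background 0.229%) and 4 were lower in Jurkat (background 6.78%). SLC2A6, a member of the glucose transporter family, was at 11.4 and 10.5 TPM in untreated THP-1 and at 72.0 and 73.9 TPM with LPS, so the groups lay far apart. Its log2 difference there was 2.63 (SE 0.58, limma adjusted p = 0.186 with all libraries, 0.00147 without the 2). In Jurkat SLC2A6 was at 15.6 and 21.3 against 5.17 and 6.24 TPM (−1.53, limma adjusted p = 0.236 and 0.00209), and in BJAB it was at 14.1 and 14.7 against 0.906 and 5.72 TPM (−2.10, 0.0537, and −1.197 with 0.0291). SLC2A4, the insulin-responsive glucose transporter, was at 2.03 and 2.76 TPM in untreated Jurkat and 0.38 and 0 TPM in stimulated Jurkat (−1.52, limma adjusted p = 0.000472). SLC2A5, the fructose transporter, was at 231 and 249 TPM in untreated BJAB and 43.5 and 50.3 TPM in stimulated BJAB, so both libraries changed alike (−2.33, SE 0.32, limma adjusted p = 0.00142). SLC2A11 was at 8.56 and 9.63 against 2.36 and 2.62 TPM in BJAB (−1.53, limma adjusted p = 0.000903). The other genes lower in Jurkat without the 2 were SLC2A11 (−0.66, limma adjusted p = 0.103 with all libraries, 0.0489 without) and SLC16A7, a monocarboxylate transporter (−0.71, 0.0817 and 0.0352).

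Of 14 hypoxia targets outside glycolysis, VEGFA, an angiogenic growth factor, was higher in BJAB, at 0 and 0.749 TPM untreated and 18.8 and 9.63 TPM stimulated (log2 difference 3.46, SE 0.32, limma adjusted p = 7.2e-05). DDIT4, an inhibitor of mTORC1 signalling, was lower in BJAB, at 160 and 140 against 4.69 and 42.5 TPM (−3.26, SE 0.70, limma adjusted p = 0.0186). The 4.69 TPM came from the library that stood apart, which enlarges this difference. The second stimulated library, at 42.5 TPM, also lay below both controls. No other gene of this list passed with all libraries. P4HA2 and PLOD2 of this list reached 1 TPM only in THP-1, so the other lines held too little of them to test. ADM in BJAB was at 0.43 and 0.790 TPM untreated and at 0.806 and 6.10 TPM stimulated, so its rise rests on the second stimulated library. Without the 2, NDRG1 (1.203, limma adjusted p = 0.116 with all libraries, 0.0248 without) and DDIT4 (0.52, 1 and 0.0294) were higher in Jurkat (background 6.71% of all genes). BNIP3L (−0.60, 0.298 and 0.0190) was lower there (background 6.78%).

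Of 7 tested genes of the hypoxia-inducible factor system, EGLN3 reached 1 TPM only in Jurkat. The other lines held too little of it to test. With all libraries none of the 7, led by ARNT and HIF1A in mean TPM, passed in any of the 4 stimulations. The same held for 12 genes of pyruvate entry to the mitochondria (led by PDHB and DLD), 18 of the citric acid cycle (MDH1 and IDH2), 8 of the serine branch (PHGDH and PSAT1), 7 of the hexosamine branch (UAP1 and OGT) and 8 of glycogen metabolism (UGP2 and PYGL). Without the 2, none of these passed in THP-1 or U937 and no hexosamine gene passed in any line. EPAS1, which encodes HIF-2 alpha, was then higher in Jurkat, at 3.45 and 2.96 against 9.39 and 7.77 TPM (1.19, limma adjusted p = 0.226 with all libraries, 0.00688 without). HIF1A, the main oxygen-regulated subunit, was higher in BJAB, at 36.2 and 34.5 against 46.1 and 79.6 TPM (0.76, 0.399, and 1.15 with 0.0114). In Jurkat 1 gene of pyruvate entry (MPC1), 1 of the citric acid cycle (FH) and 2 of the serine branch (PSPH and SHMT1) were lower (background 6.78% of all genes). Of the glycogen genes 1 was higher (PYGB, background 6.71%) and 2 were lower (PYGL and GYS1, background 6.78%) in Jurkat. In BJAB PYGB was at 28.8 and 39.8 TPM untreated and 2.17 and 16.7 TPM stimulated. PYGL was at most 0.757 TPM in any BJAB library.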

How the data were processed

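RNA was prepared with SmartSeq2 from oligo-dT primed lysates, per the labels' protocols; that chemistry marks no strand, so genes that overlap cannot be told apart. The authors deposited 1 table per library with the TPM of 27311 gene symbols from uniquely aligned reads (per the file names); alignment used TopHat2 and hg19, per the submitters' processing notes, and no source used here gives the annotation or the counting tool. Each deposited TPM column sums to 1000000. The smallest TPM steps gave back whole reads for 17860 of 19092 detected genes (93.5%, tolerance 0.001 of a read), all 32 members among them, and served for depth, counts behind low values and 1 alternative test. Reads carry no molecular identifiers, so counts of 0 cover counting error only.

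All 16 libraries entered 1 limma fit (limma 3.58.1, R 4.3.3; trend; 1 coefficient per group; 8 residual degrees of freedom) of log2(TPM + 1) over genes that reached a TPM of 1 in 2 libraries or more. Tests are two-sided. The fit was tested on simulated data. Family shares are percentages of summed TPM per library, with no test. The members and lists were chosen with earlier results of these data known. Values per library are given for members past the threshold in a stimulation or a difference of responses and for paralog families; up to 4 genes past the threshold are named per other list, or else the 2 with the highest mean TPM. Related genes past the threshold only without the 2 libraries that stood apart were added with their values known. Alternatives changed the pseudocount, filter, scaling, fitted libraries, replicate block and scale of the test. Start regions come from RefSeq GRCh38.p14 and pseudogenes, shared exons and GC content from GENCODE 29.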

Additional observations from a re-analysis of the deposited data

How the results depend on the processing

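Members past the threshold are given here with the percentage of all tested genes past it in brackets. In Jurkat, 1 member with all libraries (4.87%), they numbered 0 with a pseudocount of 0.1 TPM (3.08%), 2 under median-of-ratios scaling (5.47%), quantile normalization (5.88%), limma-voom (3.92%) and the fit of Jurkat alone (2.56%), 7 without the 2 libraries that stood apart (13.5%), and 0 to 1 with each library left out in turn (2.99% to 3.33%). In BJAB, 0 (6.4%), they numbered 3 with a pseudocount of 5 TPM (7.64%), 1 under median-of-ratios scaling (8.24%), quantile normalization (7.01%) and limma-voom (8.24%), 2 without the 2 libraries (9.22%), and 0 to 18 with each library left out (2.22% to 29%). For Jurkat minus BJAB, 0 (5.24%), the counts were 2 with a pseudocount of 5 TPM (6.99%), 1 under median-of-ratios scaling (5.79%), quantile normalization (5.63%) and in the fit of these 2 lines alone (3.97%), 7 without the 2 libraries (8.76%), and 0 to 11 with each left out (3.37% to 20.6%). In U937, 0 (0.0278%), the range with each library left out was 0 to 17 (0.0208% to 34.7%), and for THP-1 minus U937, 0 (0.0486%), it was 0 to 7 (0.0208% to 17.8%); the highest values came without the second stimulated library of U937 or BJAB, which leaves the library that stood apart alone in its group and assumes that it varies like the other groups. At baseline, fits without the 2 libraries and fits of the 8 untreated libraries called 24 (55.6%) and 25 (58.7%) for THP-1, against 14 (34.9%), 28 (57.5%) and 29 (60.4%) for U937, against 9 (35.9%), 24 (58.9%) and 24 (61.9%) for Jurkat, against 10 (38.0%), and 23 (59.4%) and 24 (62.1%) for BJAB, against 12 (39.5%). Median-of-ratios scaling (37.0%) and quantile normalization (39.5%) each called 14 in U937. With each library left out the counts were 9 to 14 for THP-1 (22.5% to 31.8%), 6 to 8 for U937 (22.8% to 32.9%), 6 to 8 for Jurkat (25.2% to 34.8%) and 8 to 11 for BJAB (28.2% to 36.6%). The baseline counts include PFKFB2 wherever it passed, although it entered the test only through Jurkat. Its log2 difference in untreated U937 was −0.74 in the main fit and 0.072 in limma-voom, from 2 and 4 reads. These 2 values are a description, and no test of PFKFB2 is read from them. Median-of-ratios scaling moved the median log2 difference of all genes by 0.25 in U937, 0.14 in BJAB and −0.16 in untreated Jurkat. With a replicate block the counts were 0 (0.0556%), 0 (0.0278%), 1 (3.31%) and 0 (3.76%) in THP-1, U937, Jurkat and BJAB, 0 for both differences of responses (0.0139% and 3.5%), and 14 (34.6%), 10 (35.5%), 10 (37.6%) and 12 (39.2%) at baseline; same-numbered libraries deviated together with correlations of 0.012, −0.042, 0.017 and 0.142 in the 4 lines, so the numbers were not taken to pair the libraries. Cause of these shifts was not tested. A library of 3317689 reads and 2 libraries per group limit what could pass.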
